A study of Mus musculus with 24 samples.

Results

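Ribosome biogenesis and nucleolar genes were followed across subcellular RNA fractions of mouse embryonic stem cells in 2 states. The set holds 38 genes out of 29759 in each deposited table, chosen by symbol and found by Ensembl gene ID, and all 38 were found and passed the filter on low values in both tables. E14 cells, an established mouse embryonic stem cell line, were kept in serum-free N2B27 with LIF, the MEK inhibitor PD0325901 and the GSK inhibitor CHIR99021 (naive embryonic stem cells, nESC). Epiblast-like cells (EpiLC) were made from them on gelatin in N2B27 with bFGF (12 ng/ml) and activin A (20 ng/ml) and taken on day 3. Chromatin, nucleoplasm and cytoplasm fractions and whole cells (total RNA) gave 3 rRNA-depleted, strand-specific libraries each per state, which makes 8 groups and 24 libraries of 1 cell line with no genetic change. The labels do not say whether replicates are separate cultures, so p-values measure the spread between these libraries, which may be technical.

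Ribosomes are assembled from ribosomal RNA and proteins mostly in the nucleolus. RNA polymerase I transcribes the long rRNA precursor there, small nucleolar RNPs of the box C/D and box H/ACA classes guide its 2′-O-methylation and pseudouridylation, and large complexes of assembly factors cut and fold it into the precursors of the small (40S) and large (60S) subunits. Pluripotent cells divide fast and have prominent nucleoli, and the transcription factor MYC, which binds the E-box, is a known activator of ribosome biogenesis genes. What was measured here is the messenger RNA of these genes, as FPKM (fragments scaled to transcript length and library size), not the rRNA or the proteins.

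Promoters are shown for Nop2 and Rrp7a, the members whose first E-box match lay wholly within the 250 bases before the start. The E-box CACGTG, which reads the same on both strands, was searched in RefSeq windows (GRCm38.p6) from 250 bases before to 50 after each gene's start. It was in 5 of the 34 members with a window (14.7%: Nop2, Pes1, Rrp7a, Utp20 and Wdr43), in 20 of 101 other ribosome biogenesis genes (19.8%) and in 2187 of 27025 genes in all (8.09%). The 250 bases before the start follow, 5′ to 3′ on the gene's strand, with the E-box in capitals.
Nop2, chr6:125131633-125131882, plus strand: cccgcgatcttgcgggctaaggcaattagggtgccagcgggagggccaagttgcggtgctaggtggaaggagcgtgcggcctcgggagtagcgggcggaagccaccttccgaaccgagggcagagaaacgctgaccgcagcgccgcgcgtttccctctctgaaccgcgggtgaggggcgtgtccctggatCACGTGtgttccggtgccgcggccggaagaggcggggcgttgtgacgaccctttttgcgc
Rrp7a, chr15:83122802-83123051, minus strand: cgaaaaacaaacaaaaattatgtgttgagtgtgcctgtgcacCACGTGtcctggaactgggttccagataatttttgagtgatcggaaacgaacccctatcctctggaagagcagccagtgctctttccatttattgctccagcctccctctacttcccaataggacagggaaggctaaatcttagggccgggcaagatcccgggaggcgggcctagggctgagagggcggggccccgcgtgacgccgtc
The E-box starts 60 bases before the start in Nop2 and 208 bases before it in Rrp7a. In Pes1, Utp20 and Wdr43 the first match did not lie wholly before the start. A match describes these letters only.

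The labels were checked against marker genes. In total RNA the summed FPKM of 7 naive markers was 902 to 926 in nESC and 35.9 to 39.8 in EpiLC, and that of 5 formative markers was 30.8 to 32.1 in nESC and 1089 to 1124 in EpiLC. Of 5 primitive endoderm markers, none reached a mean of 1 FPKM in total RNA of either state, and of 4 trophectoderm markers 2 did in each (summed FPKM 16.6 to 17.5 in nESC and 14.8 to 15.1 in EpiLC, mostly Krt8). Of 6 fibroblast or feeder markers, 2 reached it in nESC (268 to 290 summed) and 3 in EpiLC (64.9 to 69.5), Vim making up most of both sums. Among these Dcn was at 0.636 ± 0.828 FPKM in nESC and 5.28 ± 0.555 in EpiLC total RNA and Thy1 at 0.868 ± 0.645 and 7.32 ± 0.616 (SD, n = 3), and the part of such cells in the differences between states was not tested. Cytoplasm held 7 cytoplasmic messages at 58548 to 92532 summed FPKM, and chromatin held them at 6192 to 9313. The sum over all genes differed too, at 1.56e+06 to 1.98e+06 in cytoplasm and 432706 to 504959 in chromatin. The size of the contrast in these messages thus depends on the scale. Depth was estimated from the spacing of low FPKM values: for a 2 kb transcript, 1 FPKM stood for 24.3 to 48.6 fragments in chromatin and cytoplasm libraries and for 63.4 to 93.4 in the others. Some libraries stood apart. In EpiLC, in the chromatin library numbered 3, 27 of the 38 members had their lowest chromatin value, and the cytoplasm library numbered 3 had 391 summed FPKM of 4 nuclear noncoding RNAs against 210 and 245 in the other cytoplasm libraries. For the EpiLC counts, the effect of leaving out both is given below. The tests between states were fitted only without 1 library at a time. In nESC, the nucleoplasm library numbered 3 lists the nuclear RNA Malat1 at 0, which brings its sum of those 4 RNAs to 184 FPKM against 4000 and 3803, and 22 of the 38 members had their highest nucleoplasm value in it. Without it the calls described below were 18 higher and 7 lower for nESC nucleoplasm against cytoplasm, 3 and 8 for chromatin against nucleoplasm, and between states 5 lower for chromatin against nucleoplasm and 10 higher for nucleoplasm against total RNA. In the nESC total RNA library numbered 3, 24 of the 38 members had their lowest value, and without it cytoplasm against total RNA gave the same counts (1 higher and 19 lower) and nucleoplasm against total RNA gave 10 higher between states.

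Each state's table was normalized on its own. Fractions were therefore tested within a state, with limma on log2(FPKM + 0.5), and called genes are those with a fold of at least 2 and, after Benjamini-Hochberg adjustment over all genes tested, a p under 0.05. FPKM is scaled by transcript length and library, and how libraries were scaled to each other is not given in the sources used here. A higher value in a fraction is thus higher on the deposited scale. It is not by itself a higher share of the summed FPKM, nor a number of molecules. In these bulk samples fewer cells with a transcript and less of it per cell cannot be told apart. Summed FPKM differed between fractions, and scaling every library to one sum moved the median log2 fold of all genes to 1.85 for chromatin against cytoplasm, 0.98 for nucleoplasm against cytoplasm, 0.69 for chromatin against nucleoplasm and -0.72 for cytoplasm against total RNA in nESC. In EpiLC those medians were 1.69, 0.71, 0.69 and -0.71. Directions below hold for the deposited scale, and the members' median is given relative to that of all genes under both scales.

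In total RNA the members spanned more than 2 orders of magnitude per length, and both states had the same gene at the top. Npm1, which encodes the nucleolar chaperone nucleophosmin, was at 3533, 3657 and 3472 FPKM in nESC and 3252, 3063 and 3253 in EpiLC. Next in nESC came the box C/D core proteins Nop56 (499 ± 6.75, SD, n = 3) and Nop58 (483 ± 45.3), whose libraries overlapped, and then Nhp2 (256 ± 14.7), a box H/ACA protein. In EpiLC Ncl, the gene of nucleolin, stood second at 494 ± 30.5, ahead of Nop56 (424 ± 12.0) and Nop58 (363 ± 13.7). The lowest members were Bysl (17.97 ± 0.607) and the rRNA dimethyltransferase Dimt1 (18.4 ± 0.851) in nESC, which overlapped, and Dimt1 (14.6 ± 0.854) in EpiLC.

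**Figure D1:**
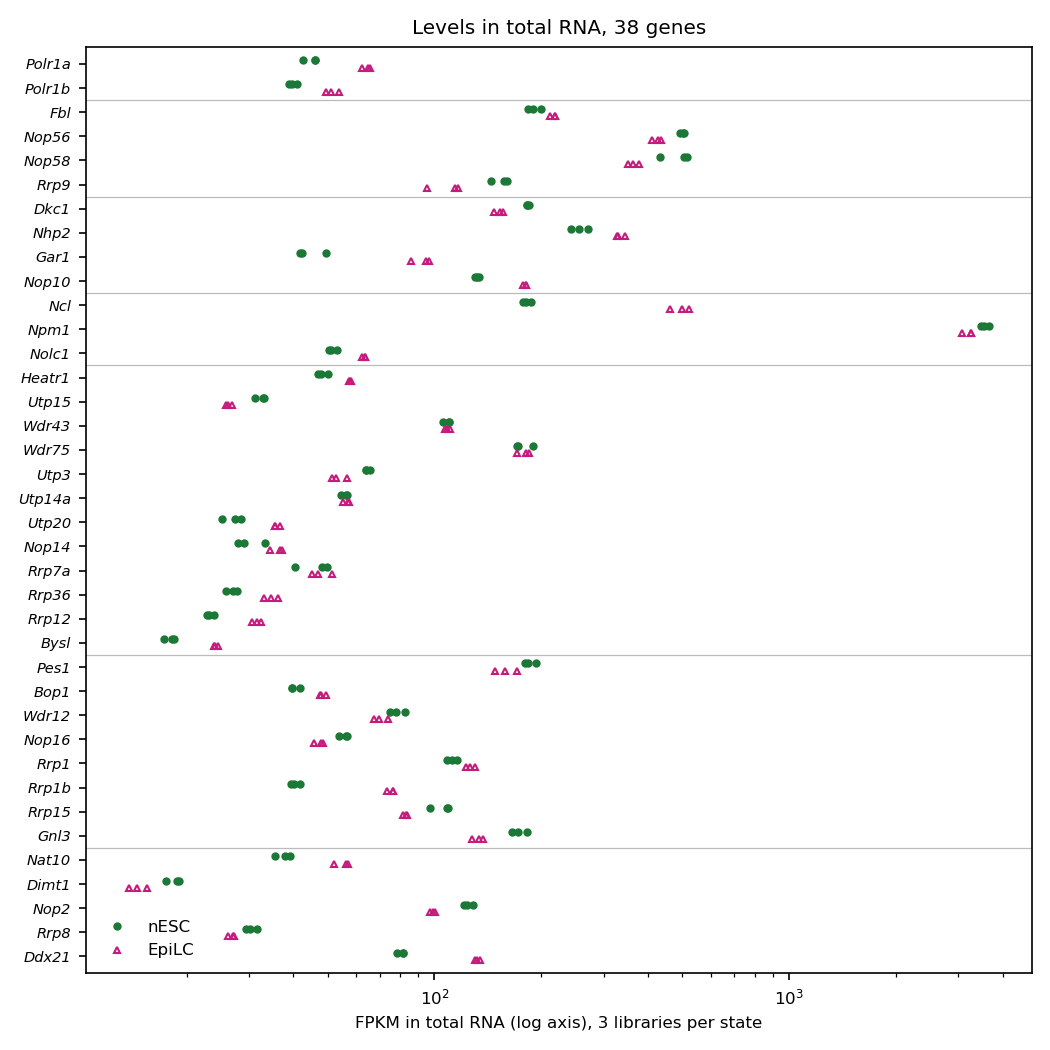
FPKM in total RNA on a log axis for the 38 genes, grouped by role with grey lines between roles, with 3 nESC libraries (filled circles) and 3 EpiLC libraries (open triangles) per gene. The largest shift between the states is that of Ncl, from 178 to 187 FPKM in nESC to 462 to 522 in EpiLC, and Npm1 is the highest gene in both.

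Between the states, 2 members had at least 2-fold higher total RNA in EpiLC, where 15.9% of 11703 genes did, and none was 2-fold lower (11.6% of genes). These are ratios of means across separately normalized tables and carry no test. Ncl went from 178, 181 and 187 FPKM in nESC to 522, 462 and 497 in EpiLC, a log2 ratio of 1.44. Gar1, a box H/ACA protein, went from 42.4, 41.8 and 49.4 to 85.9, 94.4 and 96.7, a log2 ratio of 1.05. Rrp1b (0.90), a nucleolar relative of Rrp1, and the RNA helicase Ddx21 (0.72) followed, and Rrp9, the U3 snoRNP protein, was the lowest of all members at -0.50. The median over the members was 0.11, against -0.01 over all genes, and after scaling to one sum it was 0.34 against 0.21, with 3 members at least 2-fold higher.

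In the fractions, ratios of the states lay further from those of all genes in nucleoplasm and cytoplasm than in total RNA (medians 0.73, 0.60 and 0.12 above all genes). In nucleoplasm all 38 members were higher in EpiLC, 10 of them at least 2-fold (13% of genes were) and none 2-fold lower (11.3%), and the median log2 ratio was 0.86 against 0.13 over all genes. The median gene was thus also higher in EpiLC nucleoplasm, and the share of all genes that were higher is not given here. Ncl was at 96.4, 96.3 and 109 FPKM in nESC nucleoplasm and at 432, 506 and 435 in EpiLC nucleoplasm, and Ddx21 at 60.1, 59.9 and 64.4 and at 201, 206 and 216. In chromatin 2 members, Gar1 (log2 ratio 1.13) and Ddx21 (1.05), were at least 2-fold higher (9.54% of genes were) and none 2-fold lower (8.36%), and the median was 0.17 against -0.02. In cytoplasm 15 members were at least 2-fold higher in EpiLC (14% of genes were) and none 2-fold lower (9.72%), and 8 of the 15 were the genes with Rrp names described with the cytoplasm below. Without those 8, it was 7 of 30, with a median of 0.65 against 0.15 over all genes. None of these levels was tested.

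Chromatin and cytoplasm were compared first. In nESC 16 of 38 members were higher in chromatin (31.8% of 12592 genes were) and 9 were lower (29.7%). In EpiLC 4 were higher (29.1% of 12834 genes were) and 18 lower (28.4%). The 8 Rrp-named members made up 7 of the 16 higher calls in nESC and 7 of the 18 lower calls in EpiLC, and the other 30 members counted 9 higher and 9 lower in nESC and 4 higher and 11 lower in EpiLC. The median of the 38 lay 0.47 above that of all genes in nESC and 0.81 below it in EpiLC, and with libraries scaled to one sum 0.62 above and 0.71 below. On that scale the calls were 29 higher (66.8% of genes were) with no lower call (5.96%) in nESC and 19 higher (65.4%) with 4 lower (5.16%) in EpiLC, and Nop10, Bysl and Bop1, lower as deposited, lay above 0 in both states. Without both EpiLC libraries numbered 3, the calls in EpiLC were 5 higher and 18 lower (3945 and 3772 of 12834 genes were).

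**Figure D2:**
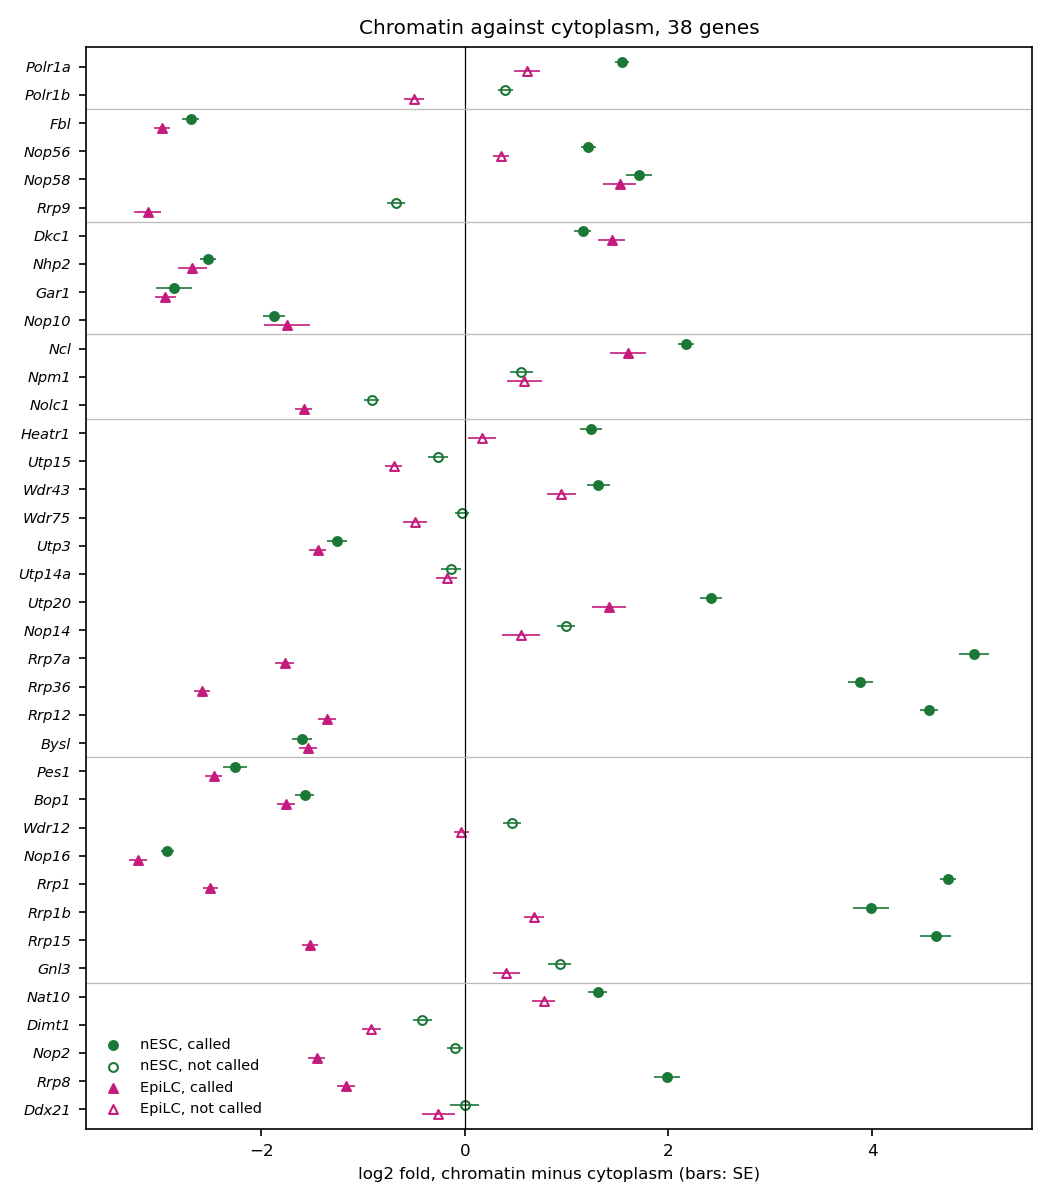
Log2 fold of chromatin over cytoplasm with its SE for each of the 38 genes, grouped by role, in nESC (circles) and EpiLC (triangles), with called genes filled. The genes with Rrp names lie on opposite sides of 0 in the 2 states, apart from Rrp9 and Rrp1b, while Ncl, Nop58, Dkc1 and Utp20 lie above 1 and Nop16, Gar1, Fbl, Nhp2 and Pes1 below -2 in both.

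Among the snoRNP proteins, members of 1 complex lay on opposite sides. Fbl, the gene of the box C/D methyltransferase fibrillarin, was at 63.9, 52.7 and 54.1 FPKM in nESC chromatin and 404, 349 and 355 in nESC cytoplasm, and its groups did not overlap (log2 fold -2.69, SE 0.08, limma adjusted p = 4.85e-12). In EpiLC Fbl was at 59.2, 61.7 and 57.8 in chromatin and 497, 483 and 437 in cytoplasm (-2.97, SE 0.08). Nop58 was higher in chromatin, at 238, 280 and 275 against 72.9, 101 and 70.3 in nESC and 367, 313 and 307 against 89.8, 105 and 157 in EpiLC (1.71, SE 0.13, and 1.52, SE 0.16). Nop56 was at 861, 707 and 808 in nESC chromatin against 341, 352 and 327 in cytoplasm (1.21, SE 0.07) and at 637, 681 and 723 against 537, 537 and 519 in EpiLC (0.35, SE 0.08, under the fold threshold).

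The box H/ACA proteins were divided in the same manner. Dkc1, which encodes the pseudouridine synthase dyskerin, was at 126, 127 and 130 FPKM in nESC chromatin and 51.5, 66.0 and 54.5 in cytoplasm (log2 fold 1.16, SE 0.08, limma adjusted p = 1.52e-08). In EpiLC it was at 175, 168 and 160 against 54.6, 53.0 and 79.5 (1.44, SE 0.13). Its small partners were lower in chromatin in both states: Gar1 at 8.28, 6.63 and 11.7 against 67.0, 67.0 and 63.9 in nESC (-2.86, SE 0.18) and 18.2, 17.9 and 22.1 against 165, 156 and 135 in EpiLC (-2.94, SE 0.11). Nhp2 gave -2.52 (SE 0.08) and -2.68 (SE 0.14). Nop10 was at 51.8, 44.8 and 36.1 in nESC chromatin against 173, 151 and 162 in cytoplasm (-1.87, SE 0.11). In EpiLC chromatin Nop10 was at 57.4 in 2 libraries and at 118 in the library numbered 3, against 255, 267 and 221 in cytoplasm (-1.75, SE 0.22).

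Of the abundant nucleolar proteins, Ncl was higher in chromatin, at 186, 220 and 207 FPKM against 43.1, 45.7 and 45.7 in nESC cytoplasm (log2 fold 2.17, SE 0.07, limma adjusted p = 1.22e-11) and at 453, 399 and 312 against 112, 105 and 169 in EpiLC (1.61, SE 0.18). Npm1 did not reach 2-fold in either state: 1048, 1266 and 1356 in nESC chromatin against 719, 969 and 817 in cytoplasm (0.55, SE 0.11), and 1840, 1381 and 1459 against 935, 847 and 1392 in EpiLC (0.58, SE 0.17), where the groups overlapped. The EpiLC cytoplasm library numbered 3 was the highest of its group for Ncl, Npm1, Nop58 and Dkc1. Of the RNA polymerase I subunits, Polr1a, the largest, was at 85.4, 85.8 and 95.8 in nESC chromatin against 29.4, 30.1 and 30.8 in cytoplasm (1.55, SE 0.07), and at 101, 105 and 76.1 against 62.2, 57.9 and 62.7 in EpiLC (0.61, SE 0.13). Polr1b was at 56.0, 56.5 and 56.6 against 47.7, 39.4 and 41.5 in nESC (0.40, SE 0.07) and at 51.7, 60.7 and 46.4 against 75.3, 76.3 and 72.2 in EpiLC (-0.50, SE 0.10), and neither was called.

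Among small-subunit factors, Utp20, a very large scaffold protein of the processome, was higher in chromatin, at 35.5, 38.2 and 44.6 FPKM against 6.24, 8.05 and 6.64 in nESC cytoplasm (log2 fold 2.42, SE 0.11) and at 38.7, 37.4 and 29.2 against 11.0, 10.6 and 17.6 in EpiLC (1.42, SE 0.17). Heatr1, another processome scaffold, was at 33.3, 40.2 and 48.7 against 16.3, 16.8 and 17.3 in nESC (1.24, SE 0.11), and overlapped between the fractions of EpiLC (0.17, SE 0.14). Bysl was at 15.4, 12.4 and 11.3 in nESC chromatin against 40.04, 39.95 and 40.80 in cytoplasm (-1.60, SE 0.10), and at -1.54 (SE 0.09) in EpiLC. Of the large-subunit factors, Nop16 had the lowest fold in both states: 9.54, 8.90 and 10.03 against 76.2, 75.2 and 74.1 in nESC (-2.92, SE 0.06, limma adjusted p = 4.31e-13) and 10.8, 9.30 and 10.5 against 103, 102 and 91.6 in EpiLC (-3.21, SE 0.09). Pes1 and Bop1, which work in 1 complex with Wdr12, were both lower in chromatin (Pes1 -2.26 and -2.47, Bop1 -1.57 and -1.76 in nESC and EpiLC), while Wdr12 was not called (0.46 and -0.03). Pes1 itself was at 59.2, 41.7 and 62.0 against 277, 253 and 243 in nESC and at 58.3, 60.5 and 63.3 against 345, 342 and 326 in EpiLC.

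Nucleoplasm against cytoplasm gave 18 members higher (20.5% of genes were) and 7 lower (19.5%) in nESC, and 10 higher (20.1%) and 7 lower (19.1%) in EpiLC. Leaving out the 8 Rrp-named genes, the calls were 11 higher and 7 lower in nESC and 10 higher and 4 lower in EpiLC. In both states the higher calls held Ncl (log2 fold 1.15 and 1.86 in nESC and EpiLC), Npm1 (1.19 and 1.75), Nop58 (1.52 and 1.86), Dkc1 (1.79 and 1.83), Heatr1 (1.11 and 1.43), Utp20 (1.94 and 2.36), Wdr43 (1.24 and 1.69), Nop14 (1.09 and 1.41), Gnl3 (1.04 and 1.5002), a nucleolar GTPase known as nucleostemin, and Ddx21 (1.16 and 1.60). Utp20 in EpiLC was at 66.7, 65.6 and 69.8 FPKM in nucleoplasm against 11.0, 10.6 and 17.6 in cytoplasm. The lower calls held Fbl (-2.00 and -1.20), Nop16 (-1.68 and -1.44), Nhp2 (-1.59 and -1.89) and Gar1 (-1.10 and -1.25) in both. Nhp2 was at 146, 142 and 144 in nESC nucleoplasm against 453, 414 and 434 in cytoplasm. In EpiLC Rrp9 was the lowest, at 71.9, 87.6 and 86.8 against 334, 353 and 318 (-2.03, SE 0.14, limma adjusted p = 7.34e-08).

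The members' median in that comparison lay 0.55 above that of all genes in nESC and 0.04 below it in EpiLC, and 0.74 and 0.13 above it with libraries scaled to one sum. On that scale the calls were 28 higher in nESC (48.9% of genes were) and 17 higher in EpiLC (40%), with no lower call in either (1.02% and 1.71%). In nESC Gar1 (0.16), Pes1 (0.13) and Bysl (0.17), lower as deposited, then lay above 0. With each library centred on its median, 11 members were higher in nESC (2064 of 12592 genes were). Without both EpiLC libraries numbered 3, 11 members were higher and 7 lower in EpiLC (2744 and 2695 of 12834 genes were).

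Chromatin against nucleoplasm gave unequal counts in the 2 states. In nESC 2 members were higher in chromatin (17.4% of genes were) and 8 lower (17.3%), and in EpiLC 1 was higher (16%) and 20 were lower (16.7%). The members' median lay 0.28 below that of all genes in nESC and 1.01 below it in EpiLC, and 0.26 and 0.97 below with libraries scaled to one sum, where the calls were 9 higher (38.6% of genes were) and 2 lower (7.31%) in nESC and 4 higher (37.5%) and 3 lower (3.91%) in EpiLC. Without the Rrp-named genes, 1 was higher and 6 lower of 30 in nESC and 15 were lower in EpiLC, where 3 of the 30 lay above 0 at an unadjusted limma p under 0.05 and none was called higher.

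**Figure D3:**
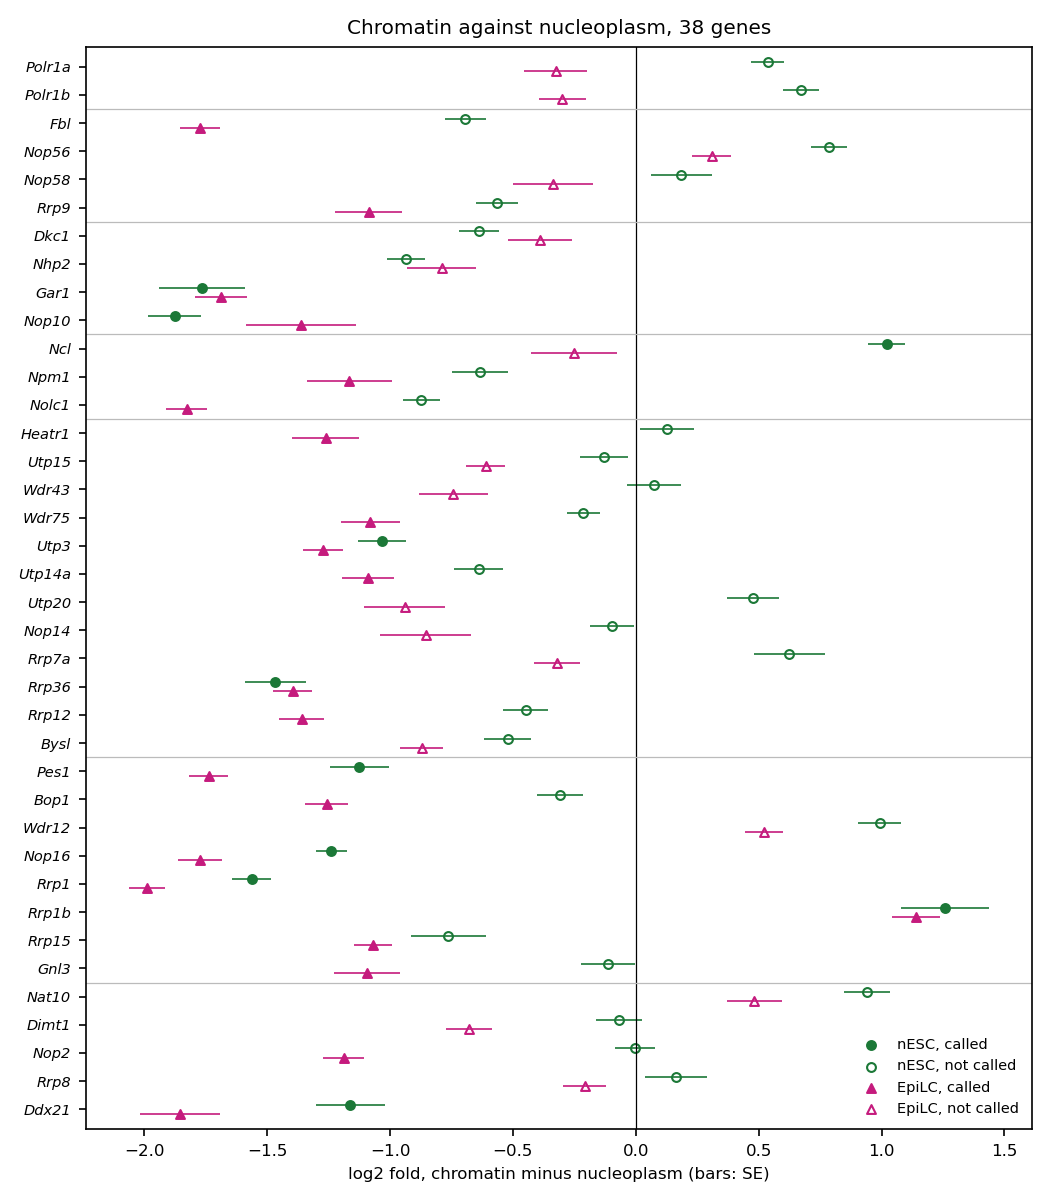
Log2 fold of chromatin over nucleoplasm with its SE for each of the 38 genes, grouped by role, in nESC (circles) and EpiLC (triangles), with called genes filled. Most triangles lie to the left of the circle of the same gene, and 20 members pass below -1 in EpiLC against 8 in nESC.

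Rrp1b was the member called higher in chromatin in both states, at 137, 100 and 97.7 FPKM against 43.2, 49.7 and 44.6 in nESC nucleoplasm (log2 fold 1.26, SE 0.18, limma adjusted p = 2.89e-05) and at 165, 175 and 141 against 77.0, 73.3 and 66.7 in EpiLC (1.14, SE 0.10). Its relative Rrp1 was lower in chromatin, at 29.2, 24.9 and 27.7 against 80.2, 78.0 and 86.2 in nESC (-1.56, SE 0.08) and at 37.7, 39.9 and 35.3 against 148, 149 and 156 in EpiLC (-1.99, SE 0.07). Ncl was higher in nESC chromatin (1.02, SE 0.07), but under 2-fold without chromatin replicate 2 (0.97) or nucleoplasm replicate 1 or 2 (0.99 each), so that 1 higher call was left without nucleoplasm replicate 2. In EpiLC the Ncl groups overlapped, with 453, 399 and 312 in chromatin and 432, 506 and 435 in nucleoplasm (-0.25, SE 0.18).

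Lower in chromatin in both states were Gar1 (log2 fold -1.77 and -1.69 in nESC and EpiLC), Nop10 (-1.88 and -1.36), Nop16 (-1.24 and -1.77), Pes1 (-1.13 and -1.74), the single-exon processome gene Utp3 (-1.03 and -1.27), Rrp36 (-1.47 and -1.40), Rrp1 and Ddx21 (-1.16 and -1.86). Ddx21 in EpiLC was at 62.3, 62.1 and 47.8 FPKM in chromatin against 201, 206 and 216 in nucleoplasm (SE 0.16, limma adjusted p = 6.09e-07). In nESC, Pes1 missed 2-fold without chromatin replicate 2 (-0.95) and Utp3 without chromatin replicate 3 (-0.96). Called in EpiLC and not in nESC were, among others, Nolc1, a chaperone of snoRNPs, at 28.4, 29.8 and 25.0 against 97.3, 102 and 99.9 (-1.83, SE 0.08), Fbl at 59.2, 61.7 and 57.8 against 196, 199 and 219 (-1.77, SE 0.08) and Npm1 at 1840, 1381 and 1459 against 3519, 3356 and 3556 (-1.17, SE 0.17).

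Cytoplasm was then set against total RNA. In nESC 1 member was higher in cytoplasm (16% of genes were) and 19 were lower (19.4%), and in EpiLC 7 were higher (12.7%) and 8 lower (17.6%). All 8 Rrp-named members were among the 19 lower calls of nESC, and none of them was among the 8 of EpiLC, so that the other 30 members counted 1 higher and 11 lower in nESC and 5 higher and 8 lower in EpiLC. The median of the 38 lay 1.08 below that of all genes in nESC and 0.19 above it in EpiLC, and 1.20 below and 0.08 above with libraries scaled to one sum, where 29 members (39.6% of genes) and 13 members (38% of genes) were lower and none higher (1.77% and 0.358%). With each library centred on its median, 3 members were higher in nESC (2732 of 12592 genes were). Without both EpiLC libraries numbered 3, 8 were higher and 9 lower in EpiLC (1954 and 2464 of 12834 genes were).

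**Figure D4:**
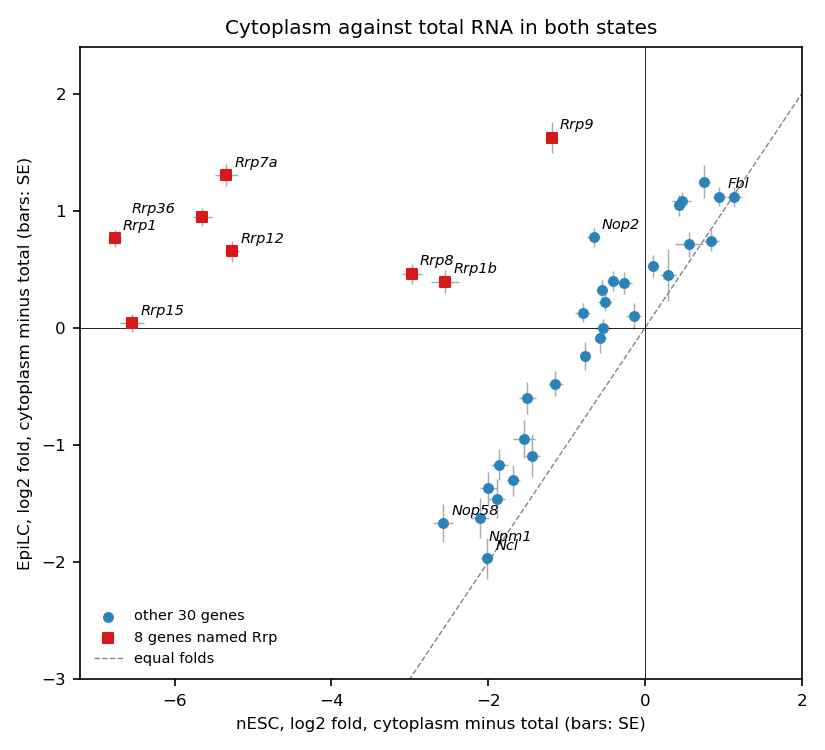
Log2 fold of cytoplasm over total RNA with SE bars, nESC on the x axis and EpiLC on the y axis, for the 8 genes with Rrp names (squares) and the other 30 genes (circles), with a dashed line of equal folds. The Rrp-named genes lie at or above 0 in EpiLC and between -6.76 and -1.19 in nESC, away from the other genes.

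Lower in cytoplasm than in total RNA in both states were Ncl (log2 fold -2.01 in nESC and -1.97 in EpiLC), Nop58 (-2.58 and -1.67), Npm1 (-2.10 and -1.63), Dkc1 (-1.68 and -1.30), Utp20 (-1.89 and -1.46), Wdr43 (-2.00 and -1.37), Gnl3 (-1.86 and -1.17) and Nop14 (-1.43 and -1.09, and in EpiLC -0.88 without cytoplasm replicate 2). Npm1 was at 719, 969 and 817 FPKM in nESC cytoplasm against 3533, 3657 and 3472 in total RNA (SE 0.11, limma adjusted p = 5.76e-09). A low ratio to total RNA does not by itself place a message in the nucleus. In nESC the mean of total RNA also lay above those of chromatin and nucleoplasm for Nop58, Npm1, Wdr43, Gnl3 and Nop14. It did not for Ncl, Dkc1 and Utp20. Bysl, a pre-40S factor, was the member called higher in nESC, at 40.04, 39.95 and 40.80 against 18.2, 18.4 and 17.3 (1.14, SE 0.10), and it was also higher in EpiLC (1.12, SE 0.09). In EpiLC Fbl (1.12), Nhp2 (1.25), Nop16 (1.05), Pes1 (1.09), Rrp7a (1.30) and Rrp9 (1.63) were higher too. Nhp2 was at 818, 851 and 721 in EpiLC cytoplasm against 328, 330 and 343 in total RNA, and Rrp9 at 334, 353 and 318 against 116, 114 and 95.1.

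Of the 8 Rrp-named genes, 5 were below 1 FPKM in every nESC cytoplasm library, and Rrp1b, Rrp8 and Rrp9 were not. Rrp1, a pre-60S factor, was at 0.481, 0.546 and 0.581 FPKM there and at 115, 112 and 109 in total RNA of the same cells (log2 fold -6.76, SE 0.08, limma adjusted p = 2.21e-14). Rrp15, another pre-60S factor, was at 0.326, 0.7996 and 0.852 against 109, 109 and 97.1 (-6.54, SE 0.15). Rrp36, of the small-subunit processome, was at 0.0808 and 0.0628 and listed at 0 in the third library, against 27.7, 27.0 and 25.8 (-5.64, SE 0.12). Rrp7a was at 0.497, 0.542 and 0.958 against 48.1, 49.8 and 40.5 (-5.34, SE 0.14), and Rrp12, a factor in the export of pre-ribosomes, at 0.190, 0.0890 and 0.0789 against 22.9, 23.9 and 23.2 (-5.27, SE 0.09). Because 0.5 was added to FPKM, these folds understate the ratio, and the lowest values rest on few fragments. Rrp1b (9.12, 4.90 and 6.07 against 39.4, 41.8 and 40.1), Rrp8 (3.85, 3.22 and 3.27 against 31.7, 29.4 and 30.2) and Rrp9 (66.4, 69.5 and 65.5 against 157, 160 and 145) were lower as well (-2.55, -2.97 and -1.19).

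In nESC chromatin, nucleoplasm and total RNA and in all EpiLC libraries, Rrp1, Rrp7a, Rrp12, Rrp15 and Rrp36 were above 6 FPKM in every library. Rrp1 was at 80.2, 78.0 and 86.2 FPKM in nESC nucleoplasm (log2 fold 6.31 over cytoplasm) and at 215, 213 and 217 in EpiLC cytoplasm, above the 126, 130 and 123 of EpiLC total RNA (0.76, SE 0.07). Rrp36 was at 70.4, 70.1 and 61.5 in EpiLC cytoplasm, Rrp7a at 117, 120 and 118, Rrp12 at 48.0, 50.1 and 52.0 and Rrp15 at 86.2, 82.1 and 87.4. Total RNA of the states differed by no more than 0.44 in log2 ratio for these 5 genes, so the low values lie in 1 fraction of 1 state.

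**Figure D5:**
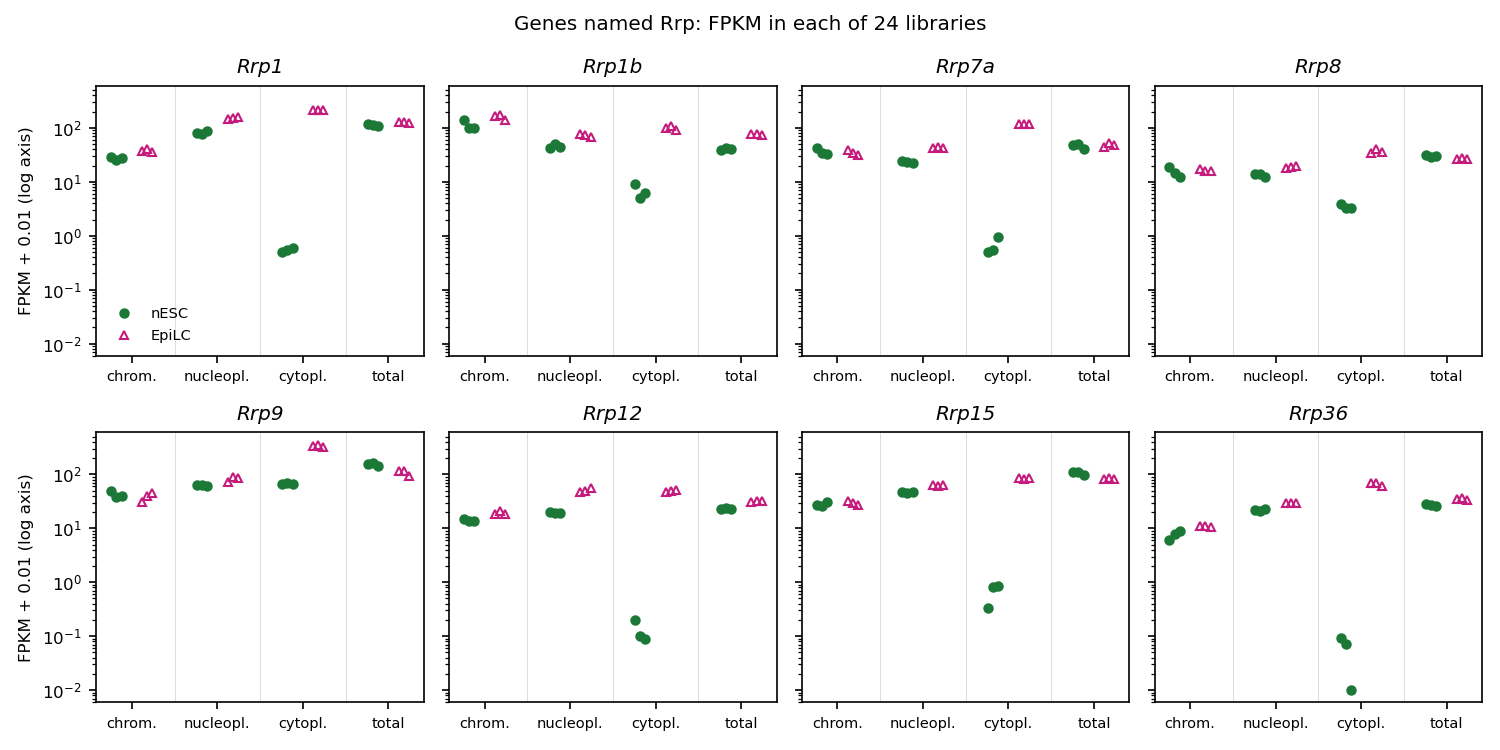
FPKM + 0.01 on a log axis in each of the 24 libraries for the 8 genes with Rrp names, by fraction, in nESC (circles) and EpiLC (triangles). In Rrp1, Rrp7a, Rrp12, Rrp15 and Rrp36 the 3 nESC cytoplasm libraries lie below 1 FPKM and all other libraries above 6.

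A cytoplasm value far below that of total RNA in nESC was rare but not limited to the members. Of 8332 genes with at least 5 FPKM in nESC total RNA, 212 (2.54%) had a cytoplasm mean more than 10-fold below the total mean, among them 5 of the 38 members (Rrp1, Rrp7a, Rrp12, Rrp15 and Rrp36) and 3 of 119 genes of a list of other ribosome biogenesis genes (Dis3, Esf1 and Exosc5). In EpiLC it was 118 of 8658 genes (1.36%), with no member and with Esf1 of that list. These counts take each state alone, so they also hold genes low in the cytoplasm of both states, such as Esf1. Chosen after their values were seen, other genes low in the same nESC cytoplasm libraries were the rRNA repeat transcripts Gm26917 (2.37 ± 0.959 against 4926 ± 1269 FPKM in total RNA, SD, n = 3), Gm42418 (32.1 ± 2.61 against 831 ± 306) and AY036118 (0.252 ± 0.190 against 15.8 ± 1.38). Low as well were the chaperone gene Hsp90aa1 (1.90 ± 0.670 against 4281 ± 166), the exosome gene Exosc5 (3.10 ± 0.742 against 101 ± 7.72), the cap methyltransferase gene Cmtr1 (0.448 ± 0.0849 against 27.3 ± 0.701) and Rrnad1 (1.47 ± 0.195 against 11.7 ± 0.482). In EpiLC cytoplasm Exosc5 was at 244 ± 23.2 and Cmtr1 at 40.6 ± 2.23. Whether reads of these genes were removed before counting in the nESC cytoplasm libraries was not tested, and the nESC cytoplasm values of the Rrp-named members are given as listed.

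Differences between the states were tested as a difference of differences, which a constant per table does not touch, on libraries centred on their medians. For chromatin against cytoplasm 9 members were lower in EpiLC than in nESC (4.14% of 11704 genes were) and none was called higher (4.78%; none at an unadjusted limma p under 0.05 either). They were Rrp1 (-7.15), Rrp7a (-6.67), Rrp36 (-6.37), Rrp15 (-6.05), Rrp12 (-5.82), Rrp1b (-3.21), Rrp8 (-3.06), Rrp9 (-2.34) and the rRNA methyltransferase gene Nop2 (-1.26, SE 0.16, limma adjusted p = 0.000264). For cytoplasm against total RNA, which shares the cytoplasm libraries, 9 were higher in EpiLC (2.31%) and none was called lower (5.72%; 1 at an unadjusted limma p under 0.05). These were Rrp1 (7.44), Rrp7a (6.55), Rrp36 (6.4998), Rrp15 (6.49), Rrp12 (5.83), Rrp8 (3.34), Rrp1b (2.85), Rrp9 (2.73) and Nop2 (1.33). Among 11704 genes ranked from the highest value, Rrp1 stood at rank 3 behind Gm26917 and Hsp90aa1. Without the Rrp-named genes 1 call, Nop2, was left in each. With no fold threshold, 24 of those 30 members lay below 0 for chromatin against cytoplasm, 7 at a limma adjusted p under 0.05. The 6 above 0 did not reach that p. For cytoplasm against total RNA 27 lay above 0, 18 at that p, and the 3 below 0 did not reach it. The medians over all genes were -0.02 and 0.03, and the shares of all genes without the fold threshold are not given here.

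Nop2 was the member outside the Rrp-named group that passed these tests. It was at 85.2, 68.5 and 68.2 FPKM in nESC chromatin, 74.8, 73.6 and 72.8 in nucleoplasm, 81.3, 76.3 and 78.7 in cytoplasm and 128, 123 and 121 in total RNA. In EpiLC it was at 60.5, 67.1 and 57.5, then 137, 134 and 153, 167, 175 and 167, and 99.2, 100.4 and 97.2. The fractions of nESC lay close together and below total RNA, while nucleoplasm and cytoplasm of EpiLC lay above it.

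A pair of further differences, chosen after seeing the data, turned on nucleoplasm, whose libraries they share. For chromatin against nucleoplasm 5 members were lower in EpiLC than in nESC (3.8% of genes were): Utp20 (-1.39), Heatr1 (-1.36), Ncl (-1.24), Nop2 (-1.15) and Fbl (-1.05), and none was called higher (3.96%; 1 at an unadjusted limma p under 0.05). Fbl was under 2-fold without nESC chromatin replicate 1 (-0.97). With no filter on low values 13 members were lower, where 1219 of 23871 genes were. Libraries were centred on the median of the genes kept, so the filter changes the centring in these tests. For nucleoplasm against total RNA 9 members were higher in EpiLC (4.48%) and none was called lower (6.3%; 2 at an unadjusted limma p under 0.05): Nop2 (1.23), Nop58 (1.22), Heatr1 (1.20), Gnl3 (1.12), Nolc1 (1.08), Wdr43 (1.05), Utp14a (1.05), Npm1 (1.01) and Ddx21 (1.01). That count was 26 with no filter (2297 of 23871 genes were) and 3 with a mean of at least 5 FPKM (217 of 8231). Npm1 fell under 2-fold without replicate 2 of nESC nucleoplasm (0.97), nESC total RNA (0.99) or EpiLC total RNA (0.98). Ddx21 did so without any 1 of 5 libraries (0.99 to 0.998), namely nESC nucleoplasm replicate 1 or 2, EpiLC nucleoplasm replicate 3 and replicate 2 of total RNA of either state. Heatr1 was at 36.7, 35.9 and 37.9 FPKM in nESC nucleoplasm against 46.9, 50.1 and 47.8 in total RNA, and at 102, 101 and 108 against 57.6, 57.5 and 58.2 in EpiLC. The median over the members was 0.73 against 0.05 over all genes. With libraries scaled to one sum no member was called (median 0.49 against -0.18), so these calls depend on the scale, and the distance from all genes stayed at 0.68 and 0.67.

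Other genes of the pathway, 121 tested of 128 listed, were counted in the same comparisons. For chromatin against cytoplasm 27 were higher (31.8% of all genes were) and 39 lower (29.7%) in nESC. In EpiLC 11 were higher (29.1%) and 53 lower (28.4%). The medians lay 0.40 and 0.71 below that of all genes. For chromatin against nucleoplasm 5 were higher (17.4%) and 14 lower (17.3%) in nESC, and 1 was higher (16%) and 49 lower (16.7%) in EpiLC. For cytoplasm against total RNA 9 were higher (16%) and 35 lower (19.4%) in nESC, and 14 higher (12.7%) and 16 lower (17.6%) in EpiLC. How these counts move with libraries scaled to one sum is not given for this list. Among the differences between states, 23 were lower for chromatin against nucleoplasm (3.8% of all genes were), Wdr3 (-1.45), Nol6 (-1.45) and Mybbp1a (-1.44) lowest. For nucleoplasm against total RNA 30 were higher (4.48% of all genes were), Tbl3 (1.63), Pwp2 (1.47) and Nifk (1.45) highest. Wdr3, Nol6, Tbl3 and Pwp2 are small-subunit processome proteins.

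Some extremes of that list were shared by the states for chromatin against cytoplasm. Higher in chromatin than in cytoplasm were Mdn1 (log2 fold 4.49 in nESC and 3.50 in EpiLC), a very large ATPase of pre-60S particles, and Esf1 (4.48 and 3.54). Exosc5 (3.70) followed in nESC and Taf1d (2.76), of the RNA polymerase I selectivity factor, in EpiLC. Lower were Nop53 (-3.67 and -3.19), which recruits the exosome to pre-60S particles, with Polr1c (-3.04) and Ruvbl2 (-2.93) in nESC and Pih1d1 (-3.12) and Rsl24d1 (-3.04) in EpiLC. In chromatin against nucleoplasm Ddx51 (2.39), Ppan (1.79) and Mdn1 (1.75) were higher and Fcf1 (-1.81), Ngdn (-1.76) and Ruvbl1 (-1.62) lower in nESC, and Taf1d (2.14) was higher and Ruvbl1 (-2.26), Brix1 (-1.94) and Znhit6 (-1.93) lower in EpiLC. In cytoplasm against total RNA Exosc5 (-4.84), Dis3 (-4.15) and Esf1 (-4.08) were lower and Pelp1 (1.85), Dhx37 (1.57) and Trmt112 (1.36) higher in nESC, and Esf1 (-3.38), Ddx10 (-2.46) and Mdn1 (-2.38) were lower and Nop53 (1.78), Polr1c (1.72) and Exosc5 (1.44) higher in EpiLC. Exosc5 and Dis3 differed between the states by 6.18 and 2.87.

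The members' places in the genome and their lengths were read from GENCODE M21 (GRCm38). They lie on 15 chromosomes, and their exonic length runs from 1109 bp in Nop10 (chr2:112261926-112263269, plus strand) to 11955 bp in Wdr12. Chromatin over cytoplasm went with exonic length across the members (Spearman's rho 0.49 in nESC and 0.66 in EpiLC over 38 genes, and 0.72 in nESC over the 30 without Rrp names), and it did so across all genes with a length (0.44 over 12561 in nESC and 0.42 over 12803 in EpiLC). For chromatin over nucleoplasm rho was 0.73 and 0.51 over the members and 0.31 and 0.23 over all genes. These values describe genes measured in the same libraries with a length that also enters FPKM, and genes are not independent replicates.

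A group of 6 members hold snoRNA genes within them, 19 in all: Nop56, Nop58, Dkc1, Ncl, Wdr43 and Gnl3. For chromatin against cytoplasm 5 of the 6 were called higher in nESC (31.8% of all genes were) and 3 in EpiLC (29.1%), while of the other 32 members 11 were higher and 9 lower in nESC and 1 was higher and 18 lower in EpiLC. Against total RNA 5 of the 6 were called lower in cytoplasm in each state, and of the other 32 members 14 were in nESC and 3 in EpiLC (19.4% and 17.6% of all genes were). Whether snoRNA reads entered the hosts' FPKM was not tested. Exons of 18 members overlap a gene on the opposite strand, namely Polr1a, Nop56, Rrp9, Dkc1, Nhp2, Heatr1, Wdr43, Utp14a, Nop14, Rrp7a, Bysl, Pes1, Bop1, Wdr12, Rrp1b, Gnl3, Dimt1 and Rrp8. Use of strand in counting is not given in the sources used here, so for those genes reads from the partner cannot be told apart.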

How the data were processed

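Libraries were grouped by the state, fraction and replicate number of their labels. Nuclei were isolated on a sucrose layer, RNA was taken up in TRIzol, and libraries were made with Ribo-zero gold and the TruSeq Stranded Total RNA kit, per the labels' protocols. The authors deposited FPKM values per gene, with 12 libraries in the table of each state. The submitters' processing notes name TopHat2, Cuffnorm and the build mm10 (GRCm38). Versions, annotation, normalization setting and strand use: not given in the sources used here. Symbols were found for 29586 of 29759 genes and not for 173.

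The 38 members, their roles, the list of other ribosome biogenesis genes (122 of 128 found by symbol) and the marker lists were chosen with earlier results of these data known. Fits used limma 3.58.1 under R 4.3.3 on log2(FPKM + 0.5), with lmFit, contrasts.fit and a trended eBayes. Tests were two-sided. The filter was a mean of 1 FPKM or more over the 12 libraries of a table, and its 4 groups were fitted together. Differences between states were fitted as interactions over 12 libraries centred on their medians. The fits were tested on simulated data. Values by library are printed for up to 3 called members with the largest folds in each direction per comparison, for members whose nESC cytoplasm mean was more than 10-fold below that of total RNA, and for a fixed set of 12 members. Up to 3 other pathway genes per direction are named for most comparisons. Depth was estimated from the smallest FPKM steps of 1276 genes with 1 transcript of 3000 to 10000 bp, where 85.4% to 93.0% of low values per library lay within 0.1 steps of a whole multiple. Counts were not used here, so no counting interval is given.

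Alternatives were pseudocounts of 0.1 and 1, no filter, a 5 FPKM filter, centred libraries, libraries scaled to one sum, no trend, 2 groups only, a replicate block, isolated zeros set to missing, the libraries numbered 3 of EpiLC chromatin and cytoplasm removed together, and each library left out in turn. The count without Rrp-named members and 2 of the 4 tests between states were added after seeing the data.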

Additional observations from a re-analysis of the deposited data

Results flagged for a closer look

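The fraction differences of some members differed between the states by the interaction test. For chromatin against cytoplasm, EpiLC minus nESC, the log2 values were -7.15 in Rrp1, -6.67 in Rrp7a, -6.37 in Rrp36, -6.05 in Rrp15, -5.82 in Rrp12, -3.21 in Rrp1b, -3.06 in Rrp8, -2.34 in Rrp9 and -1.26 in Nop2. For cytoplasm against total RNA they were 7.44 in Rrp1, 6.55 in Rrp7a, 6.4998 in Rrp36, 6.49 in Rrp15, 5.83 in Rrp12, 3.34 in Rrp8, 2.85 in Rrp1b, 2.73 in Rrp9 and 1.33 in Nop2. Both tests use the nESC cytoplasm libraries, in which the rRNA repeat transcripts Gm26917 and Gm42418 were also low, and the part of read processing in these values was not tested.

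In the 2 tests chosen after seeing the data, chromatin against nucleoplasm gave -1.39 in Utp20, -1.36 in Heatr1, -1.24 in Ncl, -1.15 in Nop2 and -1.05 in Fbl. Nucleoplasm against total RNA gave 1.23 in Nop2, 1.22 in Nop58, 1.20 in Heatr1, 1.12 in Gnl3, 1.08 in Nolc1, 1.05 in Wdr43, 1.05 in Utp14a, 1.01 in Npm1 and 1.01 in Ddx21.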

How the results depend on the processing

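Scaling every library to one sum moved most counts of called members. In nESC it gave 29 higher and 0 lower for chromatin against cytoplasm, 28 and 0 for nucleoplasm against cytoplasm, 9 and 2 for chromatin against nucleoplasm, and 0 and 29 for cytoplasm against total RNA. In EpiLC these were 19 and 4, 17 and 0, 4 and 3, and 0 and 13. The difference between states in nucleoplasm against total RNA then had 0 members higher. On this scale the sign turned from lower to higher for members called on either scale. In nESC chromatin against cytoplasm these were Rrp9 (1.28), Nop10 (0.0860), Nolc1 (1.02), Utp15 (1.67), Wdr75 (1.94), Utp3 (0.67), Utp14a (1.80), Bysl (0.33), Bop1 (0.38), Dimt1 (1.48), Nop2 (1.86) and Ddx21 (1.93). In nESC nucleoplasm against cytoplasm they were Rrp9 (1.14), Gar1 (0.16), Nolc1 (1.21), Utp15 (1.10), Utp3 (1.02), Bysl (0.17), Pes1 (0.13) and Nop2 (1.16), and in EpiLC chromatin against cytoplasm Polr1b (1.33), Nop10 (0.0855), Nolc1 (0.24), Utp15 (1.10), Wdr75 (1.34), Utp3 (0.37), Utp14a (1.64), Rrp7a (0.0590), Rrp12 (0.46), Bysl (0.27), Bop1 (0.0608), Wdr12 (1.80), Rrp15 (0.30), Nop2 (0.38), Rrp8 (0.64) and Ddx21 (1.57). Scaling to one sum multiplies all FPKM of a library by 1 factor before 0.5 is added, so genes at low FPKM move less than others. Centring libraries gave 11 higher for nucleoplasm against cytoplasm, 1 for chromatin against nucleoplasm and 3 for cytoplasm against total RNA in nESC (2064, 2100 and 2732 of 12592 genes were). Without the 8 Rrp-named members the counts fell to 9, 11 and 1 higher in the first 3 nESC comparisons and 11 lower in cytoplasm against total RNA, to 11, 4 and 0 in EpiLC (lower in chromatin and in nucleoplasm against cytoplasm, higher in chromatin against nucleoplasm), and to 1 in each of the differences between states that involve cytoplasm. With no filter the differences between states had 14 members higher for cytoplasm against total RNA, 13 lower for chromatin against nucleoplasm and 26 higher for nucleoplasm against total RNA (1193, 1219 and 2297 of 23871 genes were). With a mean of at least 5 FPKM the last was 3 (217 of 8231 genes were). Libraries were centred on the median of the genes kept, so the filter changes the centring in these tests. Leaving out 1 library at a time left 1 to 3 members higher for chromatin against nucleoplasm in nESC and 7 to 10 higher for nucleoplasm against total RNA between states (Npm1 and Ddx21 lost, Pes1 gained), and the other counts within 1.5 times. No other alternative, the pseudocount among them, moved a count by over 1.5 times. Replicate numbers did not pair the libraries (correlations of same-numbered deviations from -0.22 to 0.18), and the fit with the replicate block gave the same counts of called members, 16 and 9 for nESC chromatin against cytoplasm among them.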
